A study of Mus musculus with 32 samples.

Results

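The tumor necrosis factor (TNF) ligand and receptor superfamily was followed in the mouse colon through inflammation and colitis-associated tumor formation, in mice with and without the secreted nuclease Dnase1l3. Members were taken by symbol alone, as every gene in the count table named Tnf, or Tnfsf or Tnfrsf followed by a number and at most 1 letter. This rule found 32 genes of 55291, of which 12 are ligands and 20 are receptors. Superfamily genes with names of another form, such as Ltb, Cd40 and Fas, are outside the rule and were described from a separate list.

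TNF ligands are mostly membrane-bound trimers that can be shed, and each clusters its receptor on a neighboring cell. Receptors with a death domain can start cell death, whereas most others recruit TRAF adaptors and switch on the NF-κB transcription factors. In the gut, Tnf drives inflammation, LIGHT, OX40, CD30 and CD137 act on lymphocytes, the BAFF and APRIL branch keeps B cells and plasma cells alive, and the RANK branch acts in lymphoid organs and bone.

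The 32 libraries came from whole colon or isolated tumors of full-body constitutive Dnase1l3-KO mice and WT mice on a C57BL/6 background, in 8 groups. Colitis and tumors were induced in 3-month-old mice with 1 injection of the mutagen azoxymethane (AOM, 8 mg/kg), followed by up to 3 cycles of dextran sulfate sodium (DSS), each with 2.5% DSS for 7 days and then water for 14 days. Colon was taken from 4 KO and 4 WT mice each at baseline without treatment (D0), after 1 cycle and 5 days of recovery (D19), and 24 days after 3 cycles (D80), and tumors came from 3 KO and 5 WT mice after 3 cycles, so that all treated groups had received both AOM and DSS. Sex was not given, and neither was the deleted part of the gene. Dnase1l3 itself had 0.675 to 11.8 CPM in KO libraries and 1.79 to 10.4 CPM in WT libraries. Its log2 fold changes of KO over WT were 0.27 at D0, -1.07 at D19, -0.17 at D80 and -0.22 in tumors (adjusted p = 0.827, 0.444, 0.878 and 0.888, edgeR). At D19 all KO libraries (0.675 to 6.79 CPM) lay below all WT libraries (7.29 to 8.84 CPM), a pattern of 4.85% of all genes. In the other groups KO and WT overlapped, so the counts did not check the genotype of every library. KO and WT here therefore rest on the sample labels.

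Total counts ranged from 18951121 to 47623288 per library, and the 32 members together held 0.0168% to 0.103% of them. Values are CPM, counts relative to library size after TMM scaling over all 32 libraries, and levels are compared between genes only as CPM per kilobase of exon. A gene was called changed when its adjusted p was under 0.05 and its fold over 2 in edgeR's quasi-likelihood test over all genes, except for KO against WT tumors, where an unadjusted p under 0.01 and a fold over 2 were used. Log2 fold changes are given ± SE. Replicates were separate mice, named by their number in the labels. Values within a group follow the same mouse order throughout: 852, 853, 915 and 872 for KO and 851, 918, 920 and 927 for WT at D0; 811, 813, 803 and 804 for KO and 685, 686, 805 and 812 for WT at D19; 527, 535, 543 and 544 for KO and 581, 541, 542 and 555 for WT at D80; 527, 543 and 544 for KO tumors and 534, 541, 542, 579 and 555 for WT tumors. The libraries of KO mouse 811 at D19, WT mouse 581 at D80 and the tumor of KO mouse 544 stood apart, with 10.6%, 15.1% and 8.02% of counts from mitochondrial genes and low TMM factors of 0.752, 0.593 and 0.816.

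Markers fixed for the cell types of the colon were present in the whole-colon libraries, with a summed level of 8 colonocyte genes between 2367.5 and 14030.0 CPM, and this sum was 391 to 753 CPM in KO tumors and 606 to 1342.6 CPM in WT tumors. In whole tissue, fewer cells of a type and less RNA per cell cannot be told apart, which holds for every result that follows.

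Promoter sequences are shown for the 3 members with the highest fold changes at D19 over D0 in KO colons and for Tnf, the cytokine that named the family: Tnfrsf9, the receptor CD137 of activated lymphocytes, Tnfsf11 or RANKL, Tnfsf14 or LIGHT, and Tnf. RefSeq held promoters for 25 of the 32 members (29 promoters, 250 bases before to 50 after each start, GRCm38.p6). Capitals mark matches on either strand to the NF-κB consensus, to the AP-1 motif TGANTCA or to the TATA motif TATAAA. The lines give the stretch at chr4:150927749-150928048 on the plus strand for the second of 2 Tnfrsf9 starts, chr14:78307994-78308293 on the minus strand for Tnfsf11, chr17:57194132-57194431 on the minus strand for Tnfsf14 and chr17:35201958-35202257 on the minus strand for Tnf.
Tnfrsf9: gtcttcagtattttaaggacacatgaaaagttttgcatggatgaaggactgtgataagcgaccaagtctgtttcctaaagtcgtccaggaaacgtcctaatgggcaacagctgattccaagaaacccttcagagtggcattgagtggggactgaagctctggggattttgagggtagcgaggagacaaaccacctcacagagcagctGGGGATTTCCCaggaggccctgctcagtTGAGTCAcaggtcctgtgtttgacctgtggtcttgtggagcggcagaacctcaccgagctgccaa
Tnfsf11: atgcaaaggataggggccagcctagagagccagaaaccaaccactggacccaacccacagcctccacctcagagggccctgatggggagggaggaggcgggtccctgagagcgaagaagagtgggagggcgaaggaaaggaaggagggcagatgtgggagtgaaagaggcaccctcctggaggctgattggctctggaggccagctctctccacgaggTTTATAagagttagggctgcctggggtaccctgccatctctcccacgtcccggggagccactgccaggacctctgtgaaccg
Tnfsf14: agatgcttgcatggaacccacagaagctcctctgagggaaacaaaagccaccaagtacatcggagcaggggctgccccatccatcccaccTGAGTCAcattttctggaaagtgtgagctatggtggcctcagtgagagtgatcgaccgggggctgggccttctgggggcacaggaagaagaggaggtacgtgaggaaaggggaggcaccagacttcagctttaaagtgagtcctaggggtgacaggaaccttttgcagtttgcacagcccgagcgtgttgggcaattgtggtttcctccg
Tnf: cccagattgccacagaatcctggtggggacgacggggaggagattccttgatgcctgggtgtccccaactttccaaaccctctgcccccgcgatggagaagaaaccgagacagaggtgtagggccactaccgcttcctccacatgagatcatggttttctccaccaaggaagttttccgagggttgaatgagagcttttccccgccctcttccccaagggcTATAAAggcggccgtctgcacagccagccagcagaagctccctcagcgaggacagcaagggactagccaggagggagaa
In the Tnfrsf9 window shown, overlapping NF-κB matches began 43 and 42 bases before the start and read GGGGATTTCC and GGGATTTCCC, and an AP-1 match began at 15 bases before it. The window of the other Tnfrsf9 start, chr4:150919905-150920204, held no match to any of these motifs. Tnf and Tnfsf11 each had a TATA match, which began 29 and 32 bases before the start, and Tnfsf14 had an AP-1 match at 160 bases before it. Among promoters of the members, 10.3% held the NF-κB consensus, against 8.46% of all 32851 RefSeq promoters of the same length. The AP-1 motif was in 6 of 29 member promoters (20.7%) against 7.81% of all, and the TATA motif in 17.2% against 13.6%. The windows of the Tnfsf13b starts overlap and share the same AP-1 match. By gene, the AP-1 motif was in 5 of 25 members against 2425 of 27025 genes. These matches are a description of the letters in the window.

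In untreated colon the superfamily was dominated by receptors. At D0 the summed level of the 20 receptors was 85.1 ± 6.35 CPM per kilobase in KO colons and 87.1 ± 2.71 in WT colons (SD, n = 4 each). That of the 12 ligands was 13.0 ± 1.13 in KO colons and 13.0 ± 1.25 in WT colons. Tnfrsf1a, the death-domain receptor of Tnf found on nearly all cells, had the highest level, 29.5 ± 4.82 CPM per kilobase in KO colons and 31.1 ± 2.61 in WT colons. Tnfrsf21 (DR6) followed with 17.7 ± 1.78 in KO and 16.4 ± 2.42 in WT, and the RANK receptor Tnfrsf11a with 13.4 ± 1.41 in KO and 11.9 ± 0.43 in WT. In WT, the ranges of these 3 receptors, 27.6 to 33.8, 13.3 to 19.01 and 11.4 to 12.4 CPM per kilobase, did not overlap. Below them in WT, Tnfrsf12a, the receptor Fn14 for TWEAK, ranged from 5.98 to 12.3 and overlapped Tnfrsf11a above it and Tnfrsf1b below it (6.22 to 6.89).

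Tnfsf13 (APRIL) and Tnfsf12 (TWEAK) were the ligands with the highest levels in untreated WT colon, at 5.06 ± 0.35 and 4.23 ± 1.19 CPM per kilobase, and their ranges overlapped. Their values are uncertain because they share 60.05% and 48.25% of their exon bases with a same-strand readthrough gene, Tnfsfm13. Tnf stood at 0.42 ± 0.09 CPM per kilobase in the same mice. Lowest were Tnfsf4 (OX40 ligand) with 3 reads over all KO libraries and 1 read over all WT libraries at D0, and Tnfsf18 (GITR ligand) with 3 and 2 reads. Tnfrsf22 and Tnfrsf23, decoy receptors for TRAIL known in mice, share 12.6% and 13.1% of their 75-base words, so reads from the shared part cannot be assigned to one of them.

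At D0 no member was called between KO and WT colons. Of 20 members with enough reads, 0 were called, against a background over 18175 genes of 0.00% called higher and 0.00% called lower. At an unadjusted p under 0.05 no member passed either, where 4.16% of all genes were higher and 5.47% lower in KO. DESeq2 also called 0 members at D0, and 1 was under an unadjusted p of 0.05. With the label prefix as a block, the number that precedes the mouse number in the labels, 4 members were lower in KO at that threshold and 0 higher: Tnfrsf19 (-0.54), Tnfrsf12a (-0.52), Tnfsf12 (-0.52) and Tnfrsf23 (-0.50), with adjusted p between 0.386 and 0.526 in edgeR. KO mouse 872 and WT mouse 927 carried prefixes 125 and 135, which no mouse of the other genotype did, so that fit compared the genotypes among the other mice. Leaving out 1 library gave 0 to 2 members higher and 0 to 2 lower at the unadjusted threshold. Tnf had 0.718, 0.289, 0.751 and 0.876 CPM in KO colons and 0.742, 0.707, 0.493 and 0.844 CPM in WT colons, overlapping throughout.

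**Figure D1:**
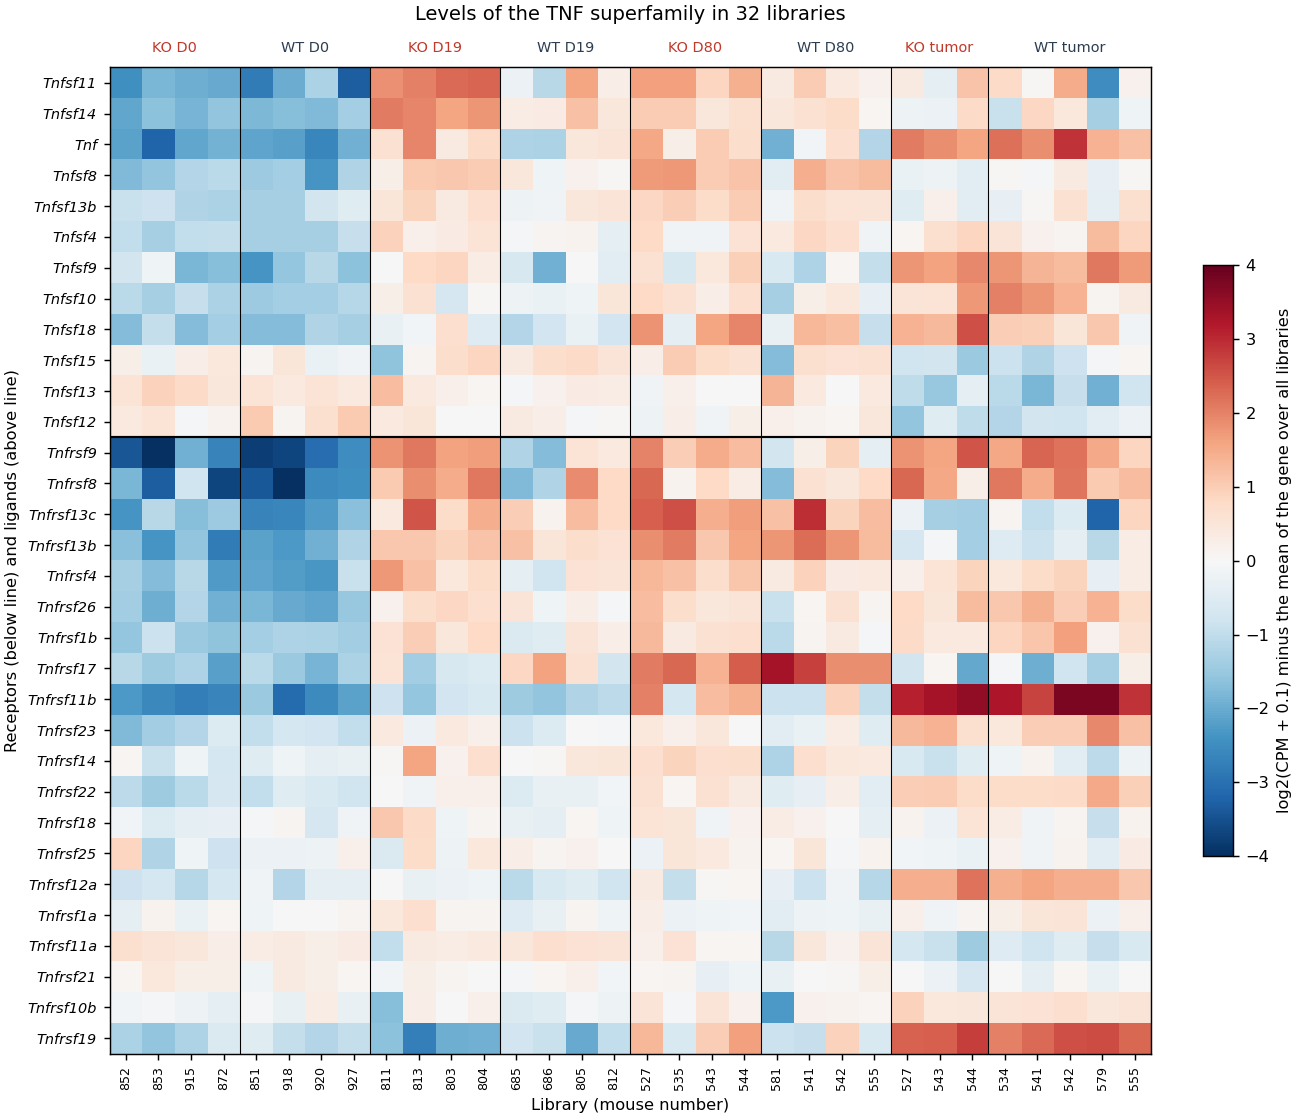
Levels of the 32 members in each library, as log2(CPM + 0.1) minus the mean of the gene over all 32 libraries (color scale), with ligands above the line, receptors below it and KO left of WT at each stage. Tnfrsf11b and Tnfrsf19 were higher in all 8 tumors than in any colon.

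After 1 cycle of AOM/DSS, many members were higher than at D0 in both genotypes and none was called lower with all libraries. No label prefix was shared between the D0, D19 and D80 colons. Stage and prefix therefore cannot be told apart in any comparison between these stages. In KO colons 17 of 30 tested members were called higher at D19 than at D0 and 0 lower, where 8.95% of 19191 genes were called higher and 2.52% lower. In WT colons 14 of 30 were called higher and 0 lower, against 9.33% and 4.04% of 18570 genes. The median log2 fold change over the tested members was 1.35 in KO and 0.97 in WT, beside 0.03 and 0.00 over all genes tested. Without KO mouse 811, whose library stood apart, 18 members were called higher in KO and 1 lower, Tnfrsf19 (-1.11, adjusted p = 0.0248, edgeR), which was at -0.95 (adjusted p = 0.0855) with all libraries. Over all genes, the fit without mouse 811 called 2288 of 19661 higher and 743 lower. Of the called members, 9 in each genotype had too few reads at D0 to pass the filter there and entered only through their D19 levels. When at least 10 counts were required in every library, 7 of 18 members were called in KO and 5 of 20 in WT, and the median log2 fold change was 0.78 in KO and 0.32 in WT. Under that filter 1078 of 16166 genes in KO and 955 of 16132 in WT were called higher. Shared between genotypes were 13 called members, 76% of those in KO and 93% of those in WT.

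Among ligands of T cell and inflammatory signaling, Tnf, the prototype cytokine of the family, had 5.401, 13.7, 4.505 and 6.04 CPM in KO colons at D19, against 0.718, 0.289, 0.751 and 0.876 CPM at D0. WT colons held 1.44, 1.41, 4.79 and 5.00 CPM at D19, against 0.742, 0.707, 0.493 and 0.844 CPM at D0. KO mouse 813 was the highest, WT mice 685 and 686 were well below WT mice 805 and 812, and no D19 value reached down to the D0 range in either genotype. The log2 fold change was 3.46 ± 0.48 in KO (adjusted p = 0.00102, edgeR) and 2.13 ± 0.47 in WT (adjusted p = 0.00447). Tnfsf11, RANKL, which is needed for lymphoid organ formation and for M cells of the gut epithelium, had 3.41, 3.93, 4.72 and 4.87 CPM in KO colons at D19, against 0.0797, 0.181, 0.155 and 0.146 CPM at D0. In WT colons it stood at 0.745, 0.359, 2.89 and 1.101 CPM at D19, against 0.0437, 0.151, 0.313 and 0 CPM at D0. The KO values at D19 lay close together and above every WT value, among which mouse 805 was highest. Fold changes were 4.88 ± 0.32 in KO (adjusted p = 3.29e-05) and 3.38 ± 0.88 in WT (adjusted p = 0.0104) on the log2 scale.

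Tnfsf14, LIGHT, a ligand of HVEM and of the lymphotoxin β receptor made by activated lymphocytes, had 2.63, 2.41, 1.84 and 2.13 CPM in KO colons at D19, against 0.0532, 0.108, 0.0777 and 0.117 CPM at D0. Its WT values were 0.698, 0.717, 1.37 and 0.7895 CPM at D19, against 0.0873, 0.101, 0.0896 and 0.156 CPM at D0. All D19 libraries were far above all D0 libraries, and all KO values were above all WT values at D19. Log2 fold changes reached 4.62 ± 0.35 in KO (adjusted p = 4.24e-05) and 2.91 ± 0.38 in WT (adjusted p = 0.000286). The CD30 ligand Tnfsf8 had 0.506, 0.967, 0.987 and 0.944 CPM in KO colons at D19 against 0.0532, 0.0723, 0.129 and 0.146 CPM at D0. In WT it measured 0.605, 0.359, 0.481 and 0.431 CPM at D19 against 0.0873, 0.101, 0 and 0.125 CPM at D0. Both D19 groups lay above D0, with KO mouse 811 inside the WT range. Its log2 fold change was 3.02 ± 0.42 in KO and 2.39 ± 0.50 in WT.

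Tnfsf9, the CD137 ligand of antigen-presenting cells, was at 1.08, 1.95, 2.06 and 1.34 CPM in KO colons at D19, against 0.611, 0.9401, 0.233 and 0.263 CPM at D0. WT colons had 0.651, 0.215, 1.06 and 0.7895 CPM at D19, against 0.131, 0.303, 0.448 and 0.281 CPM at D0. The KO groups did not overlap, whereas WT mouse 686 at D19 was inside the D0 range. It was called in KO (1.65 ± 0.47, adjusted p = 0.0459) and not in WT (1.17 ± 0.51, adjusted p = 0.082), and the KO call was lost when any of 6 single libraries was left out (log2 fold change 1.40 to 1.77). Tnfsf10, TRAIL, which binds death receptors, had 23.4, 30.02, 12.3 and 20.6 CPM in KO colons at D19 against 9.43, 7.88, 10.4 and 8.27 CPM at D0. WT values were 17.4, 16.5, 17.7 and 27.5 CPM at D19 against 7.25, 7.67, 7.702 and 8.97 CPM at D0. D19 exceeded D0 in every library of both genotypes, by 1.24 ± 0.28 in KO and 1.28 ± 0.17 in WT on the log2 scale. The KO call for Tnfsf10 was lost without KO mouse 853 or 872 at D0 (1.17 and 1.19).

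Several receptors found on activated T cells were called, whereas others of this kind, Tnfrsf14, Tnfrsf18 and Tnfrsf25, were not called in either genotype. CD137, Tnfrsf9, had 6.65, 8.33, 5.81 and 6.04 CPM in KO colons at D19, against 0.0797, 0, 0.414 and 0.204 CPM at D0. It was 0.745, 0.478, 2.73 and 2.44 CPM in WT colons at D19, against 0.0437, 0.0505, 0.134 and 0.2499 CPM at D0. The KO values formed a narrow band above all WT values, and WT mice 685 and 686 were the lowest at D19. This was the member with the highest fold change at D19 in KO, 5.16 ± 0.65 (adjusted p = 0.000619), and it was 3.55 ± 0.72 in WT (adjusted p = 0.00305). CD30, Tnfrsf8, measured 4.93, 8.58, 6.69 and 10.4 CPM in KO colons at D19, against 0.585, 0.145, 1.29 and 0.0876 CPM at D0. WT colons had 0.605, 0.956, 8.76 and 4.09 CPM at D19, against 0.131, 0.0505, 0.313 and 0.344 CPM at D0. WT mice 685 and 686 lay just above the WT values at D0 and mouse 805 was inside the KO range. Its log2 fold changes were 3.78 ± 0.70 in KO and 3.96 ± 0.90 in WT.

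OX40, Tnfrsf4, a costimulatory receptor of T cells, had 3.81, 2.57, 1.46 and 1.87 CPM in KO colons at D19 against 0.372, 0.253, 0.4403 and 0.146 CPM at D0. WT values were 0.791, 0.574, 1.65 and 1.58 CPM at D19 against 0.175, 0.151, 0.134 and 0.531 CPM at D0. Every D19 value was above every D0 value of its genotype, with KO mouse 811 the highest, and the log2 fold changes were 2.95 ± 0.45 in KO and 2.06 ± 0.50 in WT. The Tnf receptor of leukocytes, Tnfrsf1b, stood at 92.7, 122, 85.6 and 109 CPM in KO colons at D19 against 21.3, 34.1, 22.01 and 20.1 CPM at D0. In WT colons it stood at 41.6, 44.8, 88.5 and 74.8 CPM at D19 against 24.4, 26.3, 25.7 and 23.7 CPM at D0. No D19 value fell into the D0 range of its genotype, and WT mouse 805 lay inside the KO range. The change was 2.05 ± 0.23 in KO and 1.27 ± 0.22 in WT on the log2 scale, which placed Tnfrsf1b second by mean level per kilobase in both genotypes at D19 (26.8 CPM per kilobase in KO and 16.3 in WT). In WT its range of 10.9 to 23.2 CPM per kilobase overlapped those of Tnfrsf21 (13.9 to 17.1) and Tnfrsf11a (13.2 to 15.4).

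Of the 3 receptors of the B cell branch, Tnfrsf13b and Tnfrsf13c were called in both genotypes and Tnfrsf17 in WT alone. TACI, Tnfrsf13b, had 6.08, 6.09, 5.32 and 6.46 CPM in KO colons at D19 against 0.824, 0.4701, 0.881 and 0.321 CPM at D0. WT colons had 6.61, 3.99, 4.68 and 4.26 CPM at D19 against 0.568, 0.505, 0.672 and 1.19 CPM at D0. The genotypes overlapped, and the log2 fold changes over D0 were 3.22 ± 0.35 in KO and 2.65 ± 0.30 in WT. The BAFF receptor Tnfrsf13c had 1.11, 5.19, 1.44 and 2.39 CPM in KO colons at D19 against 0.0797, 0.325, 0.181 and 0.234 CPM at D0. Its WT values were 1.72, 0.908, 2.05 and 1.51 CPM at D19 against 0.0437, 0.0505, 0.0896 and 0.187 CPM at D0. KO mouse 813 was well above the other libraries, and log2 fold changes were 3.64 ± 0.61 in KO and 3.83 ± 0.44 in WT.

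BCMA, Tnfrsf17, the plasma cell receptor, was at 1.15, 0.226, 0.4505 and 0.483 CPM in KO colons at D19 against 0.292, 0.217, 0.259 and 0.0876 CPM at D0. WT colons had 1.396, 2.51, 1.19 and 0.407 CPM at D19 against 0.306, 0.202, 0.134 and 0.2499 CPM at D0. The KO groups overlapped through mouse 813, and this was the one member called in WT (2.55 ± 0.56, adjusted p = 0.00462) and not in KO (1.35 ± 0.56, adjusted p = 0.177). BAFF itself, Tnfsf13b, had 11.9, 15.9, 10.8 and 13.4 CPM in KO colons at D19 against 4.46, 4.74, 3.65 and 3.48 CPM at D0. WT values were 7.31, 7.603, 11.7 and 12.1 CPM at D19 against 3.32, 3.33, 5.06 and 5.998 CPM at D0. WT mice 685 and 686 were the lowest at D19, still above D0. Log2 fold changes were 1.65 ± 0.22 in KO and 1.08 ± 0.24 in WT, and the WT call was lost without mouse 851 or 918 at D0 or mouse 805 or 812 at D19 (0.96 to 0.98).

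Decoy and related receptors formed the last group. Osteoprotegerin, Tnfrsf11b, the soluble decoy of RANKL, had 10.3, 6.17, 10.8 and 12.1 CPM in KO colons at D19 against 3.69, 3.001, 2.64 and 2.86 CPM at D0. It had 6.75, 6.12, 7.93 and 8.804 CPM in WT colons at D19 against 6.55, 2.07, 3.04 and 4.06 CPM at D0. WT groups overlapped through mouse 851 at D0, and it was called in KO (1.66 ± 0.25) and stayed under a 2-fold change in WT (0.86 ± 0.30). The TRAIL decoy Tnfrsf22 had 4.56, 4.07, 5.19 and 5.204 CPM in KO colons at D19 against 2.13, 1.59, 2.05 and 2.77 CPM at D0. Its WT values were 3.02, 3.61, 3.65 and 4.12 CPM at D19 against 2.23, 3.18, 2.91 and 2.53 CPM at D0. It was called in KO (1.13 ± 0.24) and not in WT (0.37 ± 0.17), where the groups overlapped.

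Tnfrsf23, the other TRAIL decoy, had 12.8, 8.15, 12.8 and 11.1 CPM in KO colons at D19 against 2.79, 3.65, 4.25 and 6.601 CPM at D0. WT colons had 5.305, 6.62, 9.55 and 9.09 CPM at D19 against 4.85, 5.86, 5.597 and 4.87 CPM at D0. KO groups did not overlap (1.35 ± 0.29), WT groups did (0.49 ± 0.19, not called). Tnfrsf26, which lies beside these decoys on chromosome 7, had 0.8101, 1.21, 1.33 and 1.21 CPM in KO colons at D19 against 0.213, 0.108, 0.259 and 0.117 CPM at D0. In WT it had 1.07, 0.622, 0.886 and 0.6699 CPM at D19 against 0.131, 0.101, 0.0896 and 0.187 CPM at D0. It rose in both genotypes, by 2.64 ± 0.38 in KO and 2.51 ± 0.35 in WT on the log2 scale, with no overlap between D19 and D0. Whether any member called in one genotype changed differently there was a separate test, given with the genotype comparison at D19.

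The members that were not called at D19 included the receptors with the highest levels at D0. Tnfrsf1a had log2 fold changes of 0.41 in KO and -0.24 in WT, Tnfrsf21 of -0.20 and -0.15, and Tnfrsf11a of -0.39 and 0.21. Also not called in either genotype were Tnfrsf10b, the TRAIL death receptor, the HVEM receptor Tnfrsf14, the GITR receptor Tnfrsf18, Tnfrsf19, the DR3 receptor Tnfrsf25, its ligand Tnfsf15, Tnfrsf12a, Tnfsf12 and Tnfsf13. Tnfsf4 and Tnfsf18 had too few reads to be tested.

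**Figure D2:**
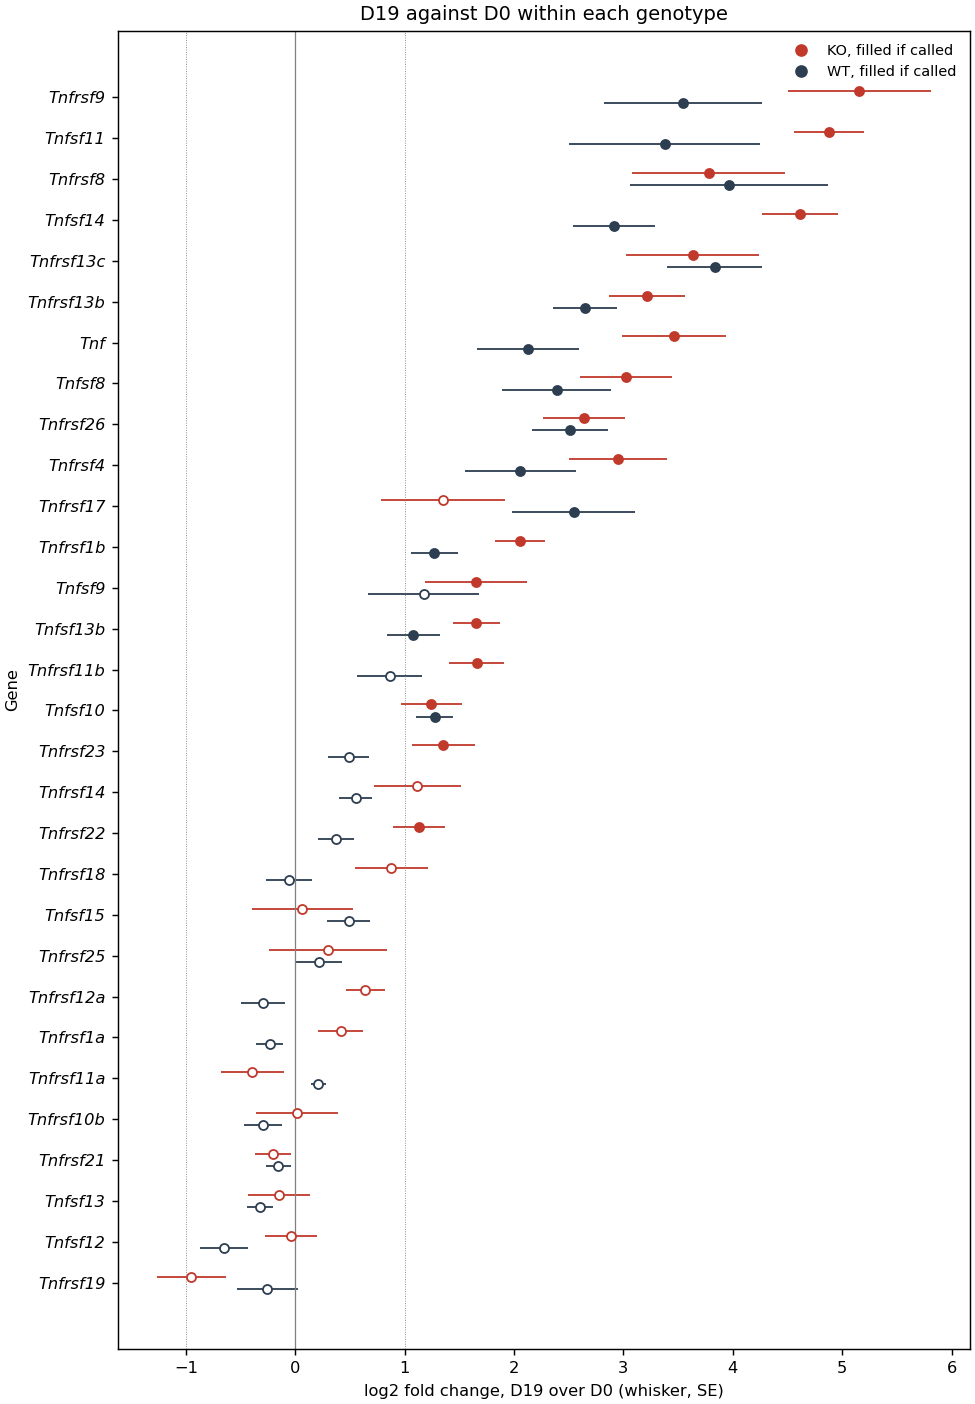
Log2 fold change of each tested member at D19 over D0 (horizontal axis, whiskers SE) in KO and WT colons, with filled points for called members. In KO, Tnfrsf9, Tnfsf11 and Tnfsf14 lie between 4.62 and 5.16, and in WT between 2.91 and 3.55.

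Markers of several cell types moved in the same comparisons. At D19 against D0, 7 of 8 T cell genes, 6 of 8 B and plasma cell genes and 8 of 8 monocyte and macrophage genes were called higher in KO, and 7, 6 and 7 of 8 in WT. Dendritic cell and fibroblast genes were called higher in 8 of 8 cases in both genotypes, with a fibroblast median of 3.07 in KO and 1.79 in WT on the log2 scale, and endothelial genes in 8 of 8 in KO and 7 of 8 in WT. Of the smooth muscle genes 3 of 8 in KO and 5 of 8 in WT were called lower, and of the colonocyte genes 4 of 8 in KO and 3 of 8 in WT. The summed neutrophil list was 427 to 741 CPM in KO colons and 36.9 to 221 CPM in WT colons at D19, against 3.59 to 52.6 CPM in KO and 3.69 to 16.6 CPM in WT at D0, and 1 of its 8 genes was at 0 in all KO libraries at D0. The part of these cells in the changes of the members was not tested.

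Other superfamily genes and the pathway were counted from separate lists, beside the 8.95% of genes called higher in KO and 9.33% in WT. Of 6 other ligands, 3 had enough reads and 1 was called higher at D19 in each genotype, Ltb, the lymphotoxin β chain, at 3.34 ± 0.39 in KO and 3.01 ± 0.38 in WT on the log2 scale. Of 8 other receptors, 7 had enough reads in KO and 8 in WT, and 3 were called higher in each genotype: Cd40, at 3.52 ± 0.49 in KO and 2.06 ± 0.29 in WT, Relt, at 3.30 ± 0.38 and 2.34 ± 0.37, and Cd27, a T cell receptor for CD70, at 2.24 ± 0.41 and 1.61 ± 0.52. Among 16 adaptors and death-signaling genes, 1 was called higher in KO (Ripk3, 1.49 ± 0.20), and in WT 1 was called higher (Birc3, 1.02 ± 0.10) and 1 lower (Traf1, -1.05 ± 0.17). Of 16 NF-κB subunits and inhibitors, Rel and the inhibitor Nfkbie were called higher in both genotypes, Nfkbie at 2.17 ± 0.33 in KO and 1.21 ± 0.21 in WT.

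The genotypes were then compared within D19, to ask whether the colon without Dnase1l3 carried more of these transcripts after 1 cycle. KO colons had higher levels than WT in 13 members and a lower level in 1 at an unadjusted p under 0.05, but 0 of the 30 tested members were called after adjustment over all genes. The background was 0.00% of 19545 genes called higher and 0.00% called lower, and 7.28% higher and 4.04% lower at the unadjusted p. The count of 13 was 5 without WT mouse 686, 8 without WT mouse 685 and 9 to 13 without any other single library, and that of lower members ranged from 0 to 3. The median log2 difference over the tested members was 0.52, beside 0.01 over all genes, and it was 0.52 over all 32 members with no filter on low counts. KO and WT libraries did not overlap for 5 members that were higher in KO and 1 that was lower, where 4.23% and 4.85% of all genes had such a pattern.

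The 5 members without overlap were Tnfrsf9, Tnfsf14, Tnfsf11, Tnfsf9 and Tnfrsf12a, whose library values at D19 are given above except for the last. Tnfrsf12a, Fn14, the TWEAK receptor induced in injured epithelium, had 25.8, 21.1, 21.99 and 22.99 CPM in KO colons and 12.1, 16.9, 18.6 and 15.1 CPM in WT colons. KO over WT, Tnfrsf9 was higher by 2.09 ± 0.50 (adjusted p = 0.317, edgeR), Tnfsf11 by 1.75 ± 0.52 (adjusted p = 0.359) and Tnfsf14 by 1.36 ± 0.29 (adjusted p = 0.305) on the log2 scale. Tnfsf9 differed by 1.27 ± 0.43 and Tnfrsf12a by 0.58 ± 0.18. Tnf differed by 1.26 ± 0.52 (adjusted p = 0.431), with overlap between the genotypes. Log2 differences of the other members under the unadjusted threshold were 1.11 for Tnfrsf4, 0.90 for Tnfsf8, 0.77 for Tnfrsf18, 0.74 for Tnfrsf1b, 0.58 for Tnfrsf23, 0.57 for Tnfrsf1a and 0.42 for Tnfrsf22. DESeq2 called Tnfrsf9 (2.10, adjusted p = 0.00633) and Tnfsf14 (1.36, adjusted p = 0.00633), and edgeR with all 32 libraries in 1 fit called Tnfrsf9 (2.07, adjusted p = 0.0458).

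Lower in KO at D19 was Tnfrsf19, TROY, a Wnt target expressed by intestinal stem cells in mice. It had 2.63, 1.19, 2.12 and 2.17 CPM in KO colons and 4.98, 4.57, 2.03 and 4.23 CPM in WT colons, where mouse 805 lay inside the KO range. The difference was -0.94 ± 0.36 (adjusted p = 0.423), and the stem and Wnt list had a median of -0.42 with 1 of 7 tested genes positive and 0 called, whose part was not tested. The member without overlap in the lower direction was Tnfrsf11a, with 29.1, 73.2, 70.1 and 76.2 CPM in KO colons and 79.1, 91.9, 86.1 and 81.4 CPM in WT colons. Its difference of -0.44 ± 0.27 had an adjusted p of 0.516, and the lowest value was that of KO mouse 811, which stood apart.

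The labels put a number before each mouse number, whose meaning they do not state, and at D19 it was not balanced between the genotypes: WT mice 685 and 686 carried 97, which no KO mouse did, and the other 6 carried 115 or 116. These WT mice were the lowest of their group for Tnf, Tnfrsf9, Tnfrsf8, Tnfrsf1b, Tnfrsf4, Tnfsf11 and Tnfsf13b. Of the other members higher in KO at the unadjusted threshold, the same held for Tnfsf14, Tnfsf9, Tnfrsf1a, Tnfrsf18, Tnfrsf22 and Tnfrsf23. It did not hold for Tnfrsf12a or Tnfsf8. With the label prefix as a block, 3 members remained higher in KO at an unadjusted p under 0.05, Tnfrsf9 (1.41), Tnfsf11 (1.24) and Tnfsf14 (1.11), each with an adjusted p of 0.981 in edgeR, and the median log2 difference of the 30 members was 0.35. Tnf differed by 0.56 in that fit and by 0.63 among prefixes 115 and 116 alone. Tnfrsf4 differed by 0.54 and Tnfrsf1b by 0.37 with the block. Within prefixes 115 and 116, with 4 KO and 2 WT mice, Tnfrsf9 differed by 1.41, Tnfsf11 by 1.11 and Tnfsf14 by 1.09, and the median of 31 members was 0.32. The prefix-blocked fit compared KO and WT among these same mice, so the 2 settings are not separate checks. Without KO mouse 811, Tnfrsf4 differed by 0.76 and Tnfrsf18 by 0.48.

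The neutrophil list moved with the genotype at D19, with 8 of 8 genes at a positive log2 difference, a median of 2.61 and 0 called, and its sums did not overlap between KO (427 to 741 CPM) and WT (36.9 to 221 CPM). T cell genes had a median of 0.76 (8 of 8 positive) and sums of 28.7 to 62.7 CPM in KO and 22.3 to 34.0 CPM in WT, and monocyte and macrophage genes had a median of 0.86 (7 of 8 positive) and sums of 433 to 737 CPM in KO and 284 to 352 CPM in WT. Their part in the differences of the members was not tested.

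Whether the change over D0 itself differed between KO and WT was tested with an interaction term. None of 30 tested members was called, where 0.00% of 20149 genes were called with a larger change in KO and 0.0298% with a smaller one. At an unadjusted p under 0.05, 7 members had a larger change in KO and 0 a smaller one, against 4.55% and 3.60% of all genes, and DESeq2 called 0. The 7 were Tnfsf14 (1.69 ± 0.52), Tnfrsf12a (0.94 ± 0.27, with the smallest adjusted p, 0.275, edgeR), Tnfrsf18 (0.94), Tnfrsf23 (0.86), Tnfrsf1b (0.78), Tnfrsf22 (0.76) and Tnfrsf1a (0.65). For all of these but Tnfrsf12a, WT mice 685 and 686 with prefix 97 were the lowest WT libraries at D19. The interaction was not fitted with the label prefix. It also takes in differences at D0, and Tnfrsf12a differed between genotypes by 0.58 at D19 itself.

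**Figure D3:**
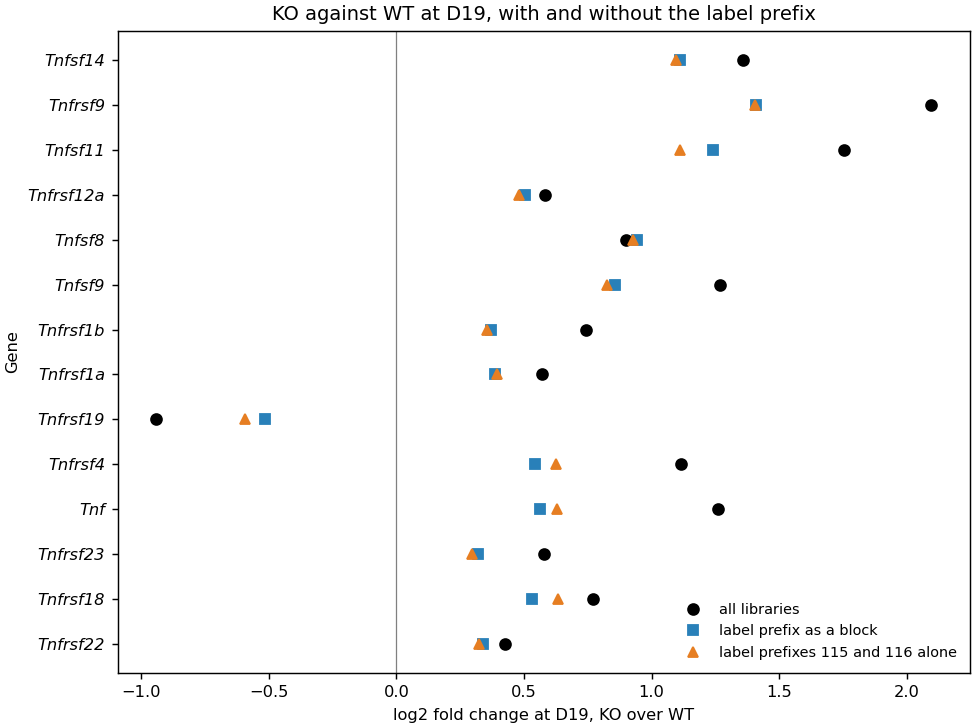
Log2 fold change of KO over WT at D19 (horizontal axis) for the 14 members with an unadjusted p under 0.05, from all libraries (circles), with the prefix as a block (squares) and within prefixes 115 and 116 (triangles). Tnfrsf9 stays between 1.41 and 2.09 and Tnfsf14 between 1.09 and 1.36, whereas Tnf is at 1.26 with all libraries, 0.56 with the block and 0.63 within the prefixes. Squares and triangles compare the genotypes among the same mice.

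After 3 cycles the levels were again above D0. At D80 against D0, 20 of 30 tested members were called higher in KO and 0 lower, where 13.4% of 19031 genes were called higher and 7.63% lower. In WT 12 of 28 were called higher and 0 lower, against 7.07% and 3.25% of 18419 genes. All 12 WT calls were also called in KO (60% of the KO calls). Of the called members, 10 in KO and 7 in WT had too few reads at D0 to pass the filter there. Among the marker lists of 8 genes, those called higher in KO and WT numbered 7 and 7 for T cells, 7 and 7 for B and plasma cells, 7 and 7 for monocytes and macrophages, 8 and 7 for dendritic cells, 8 and 3 for fibroblasts, 7 and 0 for endothelium, 6 and 5 for neutrophils and 6 and 2 for stem and Wnt genes. Called lower were 8 smooth muscle genes in KO and 4 in WT, and 5 colonocyte genes in KO and 1 in WT, and the part of these cells in the changes was not tested.

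Largest at D80 were, in KO, Tnfrsf9 at 4.76 ± 0.57, Tnfrsf13c at 4.199 ± 0.41 and Tnfsf11 at 4.13 ± 0.31, and in WT Tnfrsf13c at 4.91 ± 0.70, Tnfrsf17 at 4.43 ± 0.49 and Tnfrsf9 at 3.93 ± 0.58 on the log2 scale over D0. Tnf was 3.304 ± 0.37 above D0 in KO (adjusted p = 7.56e-05) and 1.98 ± 0.55 in WT (adjusted p = 0.0479), and the WT call was lost when any of 6 single libraries was left out (1.40 to 2.08). The WT calls of Tnfrsf11b (1.302 to 2.36) and Tnfrsf1b (1.02 to 1.22) were lost without any 1 of the same 6 libraries, the lowest values being those without mouse 542 at D80, and that of Tnfsf11 without mouse 851 at D0 (3.14). With at least 10 counts in each library, the WT calls of Tnf (1.996) and Tnfrsf11b (2.02) were also lost. The other members called in both genotypes were Tnfrsf1b, Tnfrsf8, Tnfrsf4, Tnfsf13b, Tnfrsf13b, Tnfrsf11b, Tnfsf14 and, named above for 1 genotype each, Tnfsf11 and Tnfrsf17. They ranged in KO from 1.905 for Tnfsf13b to 4.13 for Tnfsf11 and in WT from 1.198 for Tnfrsf1b to 4.43 for Tnfrsf17. Called in KO alone were Tnfsf8 (3.599), Tnfrsf26 (2.77), Tnfrsf19 (2.14), Tnfsf10 (1.69), Tnfsf9 (1.54), Tnfrsf22 (1.45), Tnfrsf23 (1.403) and Tnfrsf14 (1.06), and the difference in change between the genotypes was not tested at D80. The call of Tnfsf9 was lost without KO mouse 915 or 872 at D0 or KO mouse 527 or 544 at D80 (1.26 to 1.47), and that of Tnfrsf14 without KO mouse 853 or 872 at D0 (0.92 and 0.95).

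From D19 to D80 few members moved. In KO, 2 of 32 were called higher at D80 than at D19 and 0 lower, against 1.21% and 0.441% of 19523 genes, and in WT 0 of 30, against 0.00521% higher and 0.00521% lower of 19202 genes. In WT, 4 members were under an unadjusted p of 0.05, all higher at D80, where 1002 of the 19202 genes were under it in either direction. DESeq2 called 1 member in WT, Tnfrsf13b, where it called 195 genes higher and 44 lower. Tnfrsf19 had 21.3, 5.51, 16.9 and 26.6 CPM in KO colons at D80, above its D19 values in every mouse (3.08 ± 0.47, adjusted p = 0.0211). WT colons at D80 had 4.68, 4.41, 16.1 and 5.51 CPM, with mouse 542 alone high. In the same KO comparison 4 of 8 stem and Wnt genes were called higher, with a median of 2.22 and 8 of 8 positive, and their part was not tested. Tnfrsf17 was the other member called in KO, at 3.49, 4.07, 2.12 and 4.48 CPM at D80 (2.604 ± 0.49, adjusted p = 0.0343), and WT colons held 8.51, 5.54, 2.99 and 3.01 CPM. Both KO calls were lost without mouse 813, 803 or 804 at D19 or mouse 527 or 544 at D80, that of Tnfrsf17 also without mouse 535 or 543 at D80, and the count without 1 library ranged from 0 to 3. Of the 32 members tested in KO, 18 had a positive log2 change from D19 to D80. Tnfsf14 (-1.15 ± 0.26, adjusted p = 0.0675, edgeR) and Tnfsf11 (-0.75 ± 0.23, adjusted p = 0.211) were below their D19 levels in KO and not called.

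Between genotypes at D80 the directions were mostly toward KO and no member was called. Of 31 tested members, 0 were called and 9 were higher in KO with an unadjusted p under 0.05, where 0.00% of 18899 genes were called in either direction, 0.00% higher and 0.00% lower, and 2.79% were higher and 2.76% lower at the unadjusted p. DESeq2 called 0, with 10 under the unadjusted threshold. The count of 9 was 2 without KO mouse 527, 3 without WT mouse 555, 4 without KO mouse 543 or 544 and 6 to 11 without any other single library. With the label prefix as a block it was 3 higher, Tnfsf9 (1.31), Tnfrsf9 (0.79) and Tnfrsf1b (0.41), and 2 lower, Tnfrsf13b (-0.68) and Tnfrsf21 (-0.28). At D80 only prefix 76 held both genotypes, KO mice 543 and 544 and WT mice 541 and 542. KO mice 527 and 535 carried 74 and 75, and WT mice 581 and 555 carried 81 and 77. The prefix-blocked fit at D80 therefore compared KO and WT within prefix 76 alone. The median log2 difference of the members was 0.47, beside 0.01 over all genes, and it was 0.15 in the prefix-blocked fit and 0.35 without WT mouse 581. Groups did not overlap for 3 members higher in KO and 0 lower, where 3.34% and 1.91% of all genes had that pattern.

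These 3 were Tnfrsf9, Tnfrsf1b and Tnfsf13b. Tnfrsf9 had 7.63, 3.71, 5.29 and 4.48 CPM in KO colons and 1.07, 2.19, 3.52 and 1.42 CPM in WT colons, a difference of 1.32 ± 0.38 (adjusted p = 0.681, edgeR) and of 0.79 with the prefix block. Tnfrsf1b had 152, 80.01, 95.1 and 99.2 CPM in KO colons and 29.6, 66.3, 79.8 and 59.1 CPM in WT colons. It differed by 0.83 ± 0.30, the highest value being that of KO mouse 527 and the lowest that of WT mouse 581, and by 0.41 with the prefix block. BAFF, Tnfsf13b, stood at 15.1, 16.7, 14.2 and 17.2 CPM in KO colons and 7.72, 13.7, 12.5 and 12.2 CPM in WT colons, 0.42 ± 0.18 apart.

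Overlap was seen for the other 6 members. Tnf had 10.5, 4.14, 7.13 and 5.71 CPM in KO colons and 0.845, 3.22, 5.65 and 1.49 CPM in WT colons, where WT mouse 542 was inside the KO range and WT mouse 581 was lowest. Its difference was 1.26 ± 0.53, and 0.54 with the prefix block. Tnfrsf11b had 75.1, 11.3, 43.0 and 49.1 CPM in KO colons and 9.97, 10.2, 35.2 and 9.36 CPM in WT colons, with KO mouse 535 near the WT values and WT mouse 542 near the KO values (1.43 ± 0.62). The remaining log2 differences were 1.12 for Tnfsf9, 0.90 for Tnfsf11, 0.62 for Tnfrsf22 and 0.55 for Tnfrsf4. The neutrophil list had a median of 2.10 (7 of 8 positive) and overlapping sums of 86.0 to 344 CPM in KO and 87.7 to 276 CPM in WT, the stem and Wnt list a median of 0.99 (8 of 8 positive) and sums of 171 to 441 CPM in KO and 53.7 to 321 CPM in WT, and the colonocyte list a median of -1.13 (0 of 8 positive). Their part was not tested.

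**Figure D4:**
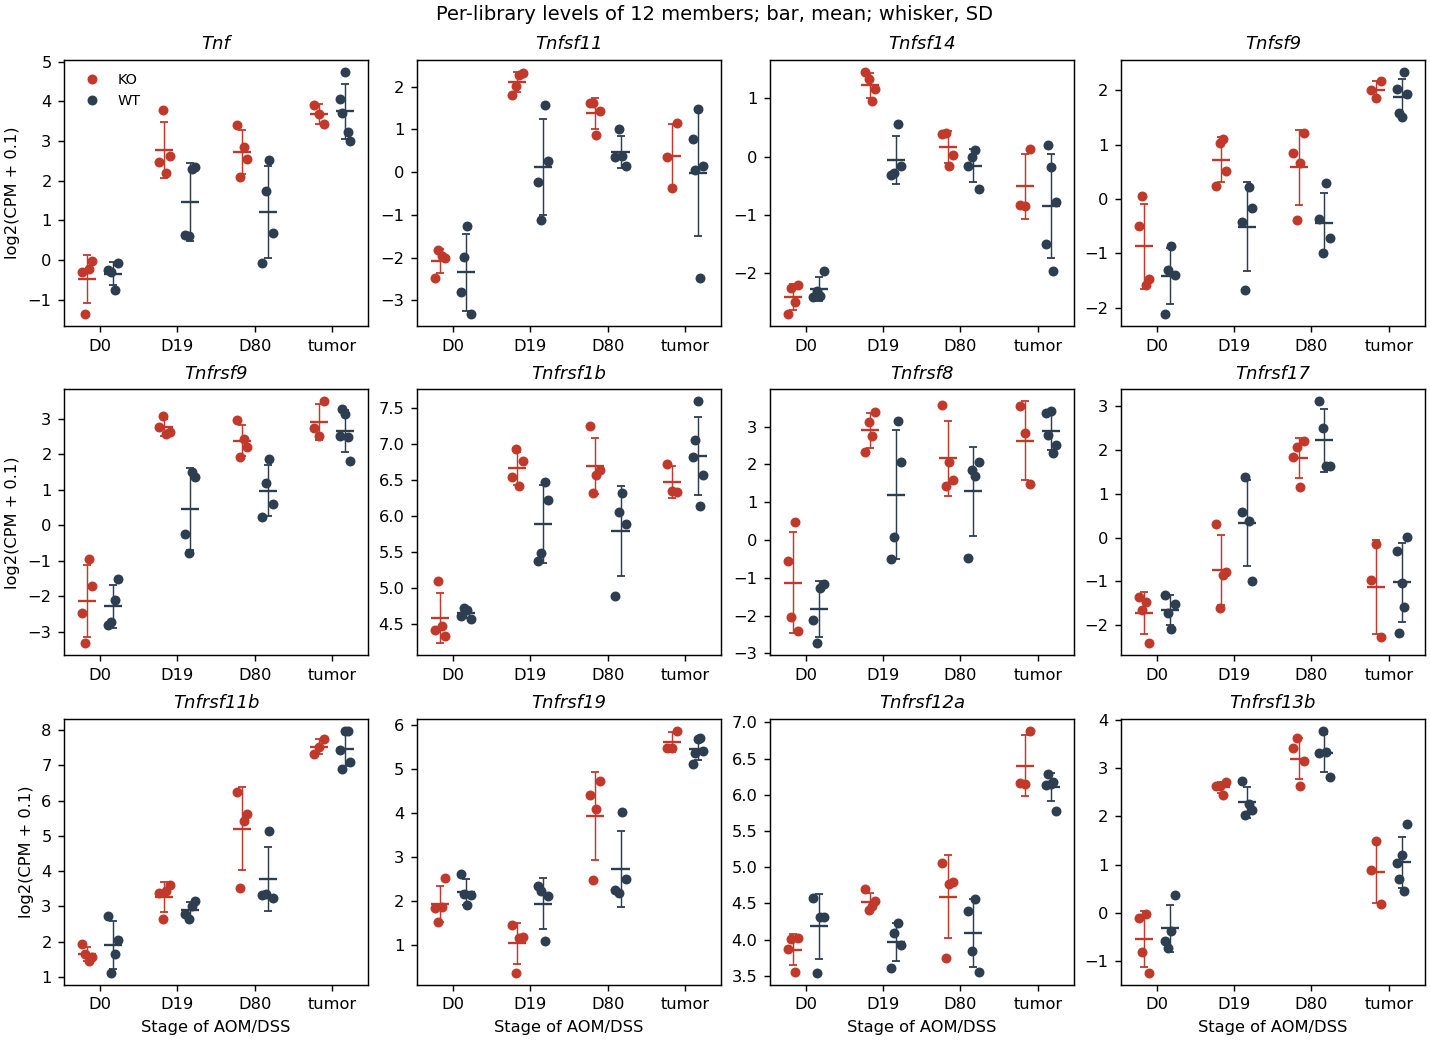
Levels of 12 members in every library as log2(CPM + 0.1) (vertical axis) at D0, D19, D80 and in tumors, KO left of WT, with the mean as a bar and the SD as a whisker. Tnfrsf9, Tnfsf11 and Tnfsf14 are separated between genotypes at D19, and KO and WT tumors overlap for each of the 12.

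Isolated tumors were set against the whole colon at D80 of the same genotype. In KO tumors 4 of 32 members were called higher and 9 lower, where 10.3% of 19457 genes were called higher and 16.4% lower. In WT tumors 9 were called higher and 5 lower, against 8.00% and 13.5% of 19007 genes. Called in both genotypes were 4 higher members, all of the KO calls and 44% of the WT calls, and 4 lower members, 44% of the KO calls and 80% of the WT calls. The difference in change between genotypes was not tested here.

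The 4 shared higher members were Tnfrsf11b, Tnfrsf19, Tnfrsf12a and Tnfsf9. Osteoprotegerin, Tnfrsf11b, had 159, 184 and 214 CPM in KO tumors and 172, 119, 252, 251 and 138 CPM in WT tumors, all above every D80 colon. It rose by 2.05 ± 0.51 over D80 colon in KO (adjusted p = 0.013) and 3.404 ± 0.49 in WT (adjusted p = 0.00103), and per kilobase it was the member with the highest level in tumors, at 65.9 CPM per kilobase in KO and 66.1 in WT. The stem cell receptor Tnfrsf19 had 44.4, 44.7 and 58.3 CPM in KO tumors and 34.4, 41.0, 51.6, 51.8 and 42.4 CPM in WT tumors. These values were also above all D80 colons (1.48 ± 0.44 in KO and 2.41 ± 0.41 in WT), and the KO call was lost without the tumor of mouse 544 (1.31) or the colon of mouse 543 (1.47). Tnfrsf12a, Fn14, had 71.5, 71.2 and 118 CPM in KO tumors and 69.9, 77.99, 71.1, 71.98 and 54.9 CPM in WT tumors, a rise of 1.79 ± 0.34 and 1.84 ± 0.25. Its ligand Tnfsf12 was lower in tumors of both genotypes (-1.07 ± 0.29 in KO and -1.01 ± 0.24 in WT), both close to the fold threshold. The KO call was lost without the tumor of mouse 527 (-0.81) or the colon of mouse 535 (-0.98), and the WT call under 11 of 18 alternatives (-0.996 to -0.89), among them DESeq2 and the replicate block (-0.91). Tnfsf9 had 3.93, 3.52 and 4.39 CPM in KO tumors and 3.96, 2.91, 2.75, 4.95 and 3.74 CPM in WT tumors, and rose by 1.38 ± 0.36 and 2.31 ± 0.36.

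Called higher in WT tumors alone were Tnf (2.26 ± 0.55), Tnfrsf9 (1.55 ± 0.41), Tnfrsf23 (1.25 ± 0.31), Tnfrsf22 (1.09 ± 0.25) and Tnfrsf26 (1.03 ± 0.32). In KO the same members had log2 changes of 0.88, 0.56, 0.84, 0.47 and 0.12. Levels of Tnf in tumors were 15.02, 12.8 and 10.7 CPM in KO and 16.6, 12.9, 26.6, 9.27 and 7.95 CPM in WT, with overlap between the genotypes. Mean tumor levels of Tnfrsf9, Tnfrsf22 and Tnfrsf26 were 7.765, 8.52 and 1.40 CPM in KO and 6.56, 8.88 and 1.70 CPM in WT. In D80 colons their means were 5.28, 6.05 and 1.28 CPM in KO and 2.05, 3.82 and 0.755 CPM in WT. Each fold change depends on the D80 colon as well as on the tumor. The calls for Tnfrsf22 and Tnfrsf23 were lost without the tumor of WT mouse 579 (0.92 and 0.998), that of Tnfrsf9 without the colon of WT mouse 555 (1.40), and that of Tnfrsf26 under 7 single omissions (0.83 to 1.07). With the mouse as a replicate block, Tnfrsf22 (0.94) and Tnfrsf26 (0.77) were not called.

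Of the receptors of B cells and plasma cells, Tnfrsf17 and Tnfrsf13b were called lower in tumors of both genotypes and Tnfrsf13c in KO alone. Tnfrsf17 had 0.409, 0.7998 and 0.107 CPM in KO tumors and 0.7104, 0.1198, 0.389, 0.236 and 0.909 CPM in WT tumors, far below its D80 colons (-3.01 ± 0.51 in KO and -3.54 ± 0.57 in WT). Tnfrsf13b had 1.74, 2.69 and 1.04 CPM in KO tumors and 1.95, 1.53, 2.197, 1.26 and 3.48 CPM in WT tumors, also below every D80 colon (-2.39 ± 0.34 and -2.41 ± 0.32). Tnfrsf13c changed by -3.26 ± 0.46 in KO, where it was called, and by -2.37 ± 0.82 in WT (adjusted p = 0.0535), where it was not. Tnfsf8 also fell in both (-2.03 ± 0.31 in KO and -1.295 ± 0.37 in WT), and its WT call was lost under 6 single omissions (-1.28 to -1.11). Called lower in KO alone were also Tnfsf15 (-1.76), Tnfrsf14 (-1.43), Tnfrsf11a (-1.25) and Tnfsf13b (-1.13), with WT log2 changes of -0.93, -0.64, -0.90 and -0.39, and the KO call of Tnfsf13b was lost without the tumor of mouse 527 (-0.988). APRIL, Tnfsf13, was called lower in WT alone (-2.05, and -0.92 in KO).

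Markers moved along with the tissue. In tumors against D80 colon, 7 of 8 B and plasma cell genes were called lower in KO and 4 of 8 in WT, with sums of 610 to 952 CPM in KO tumors and 634 to 892 CPM in WT tumors against 1181.6 to 2468.8 CPM in KO and 1487 to 3668.7 CPM in WT colons. The stem and Wnt list had 6 of 8 genes called higher in KO and 7 of 8 in WT, and smooth muscle had 8 of 8 called lower in both. Called lower in KO and WT were 5 and 1 T cell genes, 7 and 4 dendritic cell genes and 3 and 2 monocyte and macrophage genes. Fibroblast and endothelial genes had 4 each called lower in KO and 1 each in WT, and colonocyte genes 8 and 7. Of the neutrophil genes 0 were called higher in KO and 5 in WT, and of 6 tested squamous genes 6 were called higher in both. Their part in the changes of the members was not tested. Of the 16 NF-κB genes, 1 was called lower in KO tumors (Map3k14, -1.11 ± 0.29) and 2 higher in WT tumors (Rela, 1.18 ± 0.23, and Rel, 1.27 ± 0.40). Of the 16 adaptors, Traf1 was called lower in KO (-1.0002 ± 0.22), and Cd27 fell in KO (-2.10 ± 0.38). Of other ligands, Lta was called lower in both (-1.81 ± 0.46 in KO and -1.32 ± 0.37 in WT).

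**Figure D5:**
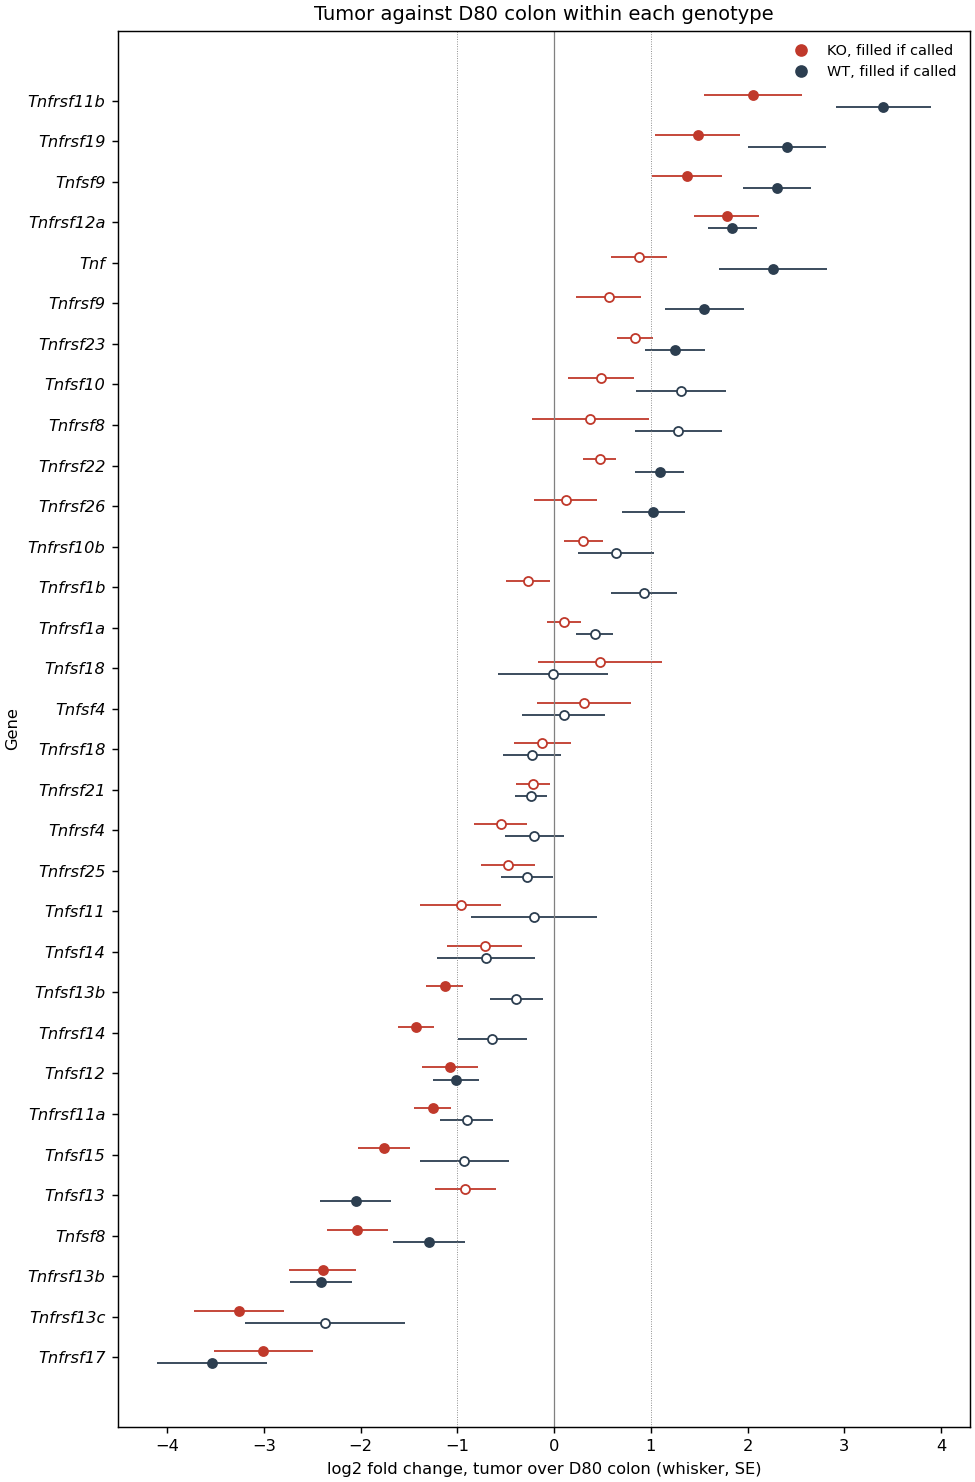
Log2 fold change of each member in tumors over D80 colon (horizontal axis, whiskers SE) in KO and WT mice, with filled points for called members. Tnfrsf11b is highest at 2.05 in KO and 3.40 in WT, and Tnfrsf17 is among the lowest at -3.01 in KO and -3.54 in WT.

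Between KO and WT tumors, 0 of 32 members were called, where 0.264% of 18961 genes were called higher and 0.0422% lower, and 1 member was under an unadjusted p of 0.05, higher in KO, where 5.45% of all genes were higher and 1.16% lower. This was Tnfsf18, the GITR ligand, with 0.763, 0.7199 and 1.86 CPM in KO tumors and 0.558, 0.539, 0.362, 0.602 and 0.202 CPM in WT tumors. No KO value was within the WT range, where 2.12% of all genes were higher in KO without overlap and 1.13% lower. The highest Tnfsf18 value came from the tumor of mouse 544, which stood apart. The difference was 1.37 ± 0.47 (adjusted p = 0.699, edgeR), it was called by DESeq2 at the unadjusted threshold (1.36), and it was 0.70 without the tumor of mouse 544. Among tumors only prefix 76 held both genotypes, KO mice 543 and 544 and WT mice 541 and 542. With the label prefix as a block, Tnfsf18 differed by 1.59. In that fit 1 member was higher and 1 lower at an unadjusted p under 0.05 in edgeR. The median log2 difference of the 32 members was -0.07, beside -0.02 over all genes.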

How the data were processed

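RNA was measured by single-end sequencing (75 bases) of 32 libraries from 26 mice. The deposited counts per gene were made by the authors, with reads checked by FastQC 0.11.5, aligned to mm10 by STAR and counted by Subread on GENCODE, per the submitters' notes and the study's methods. Whether counting used strand is not given in the sources used here, so overlapping and antisense genes are uncertain.

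The counts were tested as deposited with edgeR 4.0.16 (R 4.3.3), with TMM scaling, its expression filter, only the compared groups in each fit, and Benjamini-Hochberg adjustment over all genes kept. DESeq2 1.42.0 was an alternative, beside other scaling, filters, fits and omissions. Scripts were tested on simulated data. Total counts ranged from 18951121 to 47623288, and no pair of replicates was identical. Deposited columns of other samples numbered 0. Members called in a comparison, and between genotypes those with an unadjusted p under 0.05, are named with tests, and values of every library are given for members called at D19 against D0. The members and lists were chosen with earlier results of these data known.

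Tumor and colon came from the same mouse for 3 KO and 3 WT mice, by the mouse number in the labels. Their deviations from the group means correlated at 0.117, 0.058 and 0.180 in KO mice 527, 543 and 544 and at 0.033, 0.073 and 0.260 in WT mice 541, 542 and 555.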

Additional observations from a re-analysis of the deposited data

Results flagged for a closer look

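Single libraries that lay far from the others of their group in a member's level are given here. Of 165 groups with a mean of at least 1 CPM, 13 had such a library, where about 1 in 20 groups, or 8.25, is reached by chance. All values are in CPM.

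In D19 colons, Tnfrsf11a was 29.1 in KO mouse 811, against 70.1 to 76.2 in the other KO mice, and Tnf was 13.7 in KO mouse 813, against 4.505 to 6.04. Tnfsf10 was 27.5 in WT mouse 812, against 16.5 to 17.7. At D0, Tnfrsf1b was 34.1 in KO mouse 853, against 20.1 to 22.01.

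In D80 colons, Tnfrsf8 was 11.8 in KO mouse 527, against 2.57 to 4.09. WT mouse 542 was high for Tnfrsf11b (35.2, against 9.36 to 10.2), Tnfrsf19 (16.1, against 4.41 to 5.51) and Tnfrsf22 (5.38, against 3.16 to 3.52). WT mouse 541 was high for Tnfrsf13c (7.02, against 1.61 to 2.07) and Tnfrsf4 (2.14, against 1.37 to 1.44). WT mouse 581, whose library stood apart, was low for Tnfrsf10b (1.63, against 8.93 to 9.44) and Tnfsf15 (0.676, against 3.79 to 3.92). In tumors, Tnfrsf22 was 13.0 in WT mouse 579, against 7.43 to 8.74.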

How the results depend on the processing

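Over the alternatives for the named members, 1654 values kept their direction and side of the threshold, 92 kept their direction and lost the call, 4 kept it and gained a call, and 0 reversed. Counts of called members moved by over 1.5 times under these settings. With 10 counts in each library, fewer members were tested and 7 (KO) and 5 (WT) were called at D19 against D0, and 9 (KO) and 3 (WT) at D80 against D0. At D80 these were 9 of 18 and 3 of 20 tested members, where 1660 of 16549 genes in KO and 649 of 15156 in WT were called higher. DESeq2 called 2 members between genotypes at D19, 1 between tumors, 4 at D80 against D19 in KO and 1 in WT, and a fit of all libraries called 1 between genotypes at D19, and the cause was not tested. Leaving out 1 library gave 0 to 3 calls at D80 against D19 in KO. Within 1.5 times stayed the other counts without 1 library, 15 to 19 (KO) and 11 to 15 (WT) at D19 against D0, 19 to 21 (KO) and 9 to 15 (WT) at D80 against D0, and 11 to 16 (KO) and 10 to 16 (WT) in tumors. With the mouse as a replicate block, 13 members were called in KO tumors and 13 in WT tumors, and the same mice without the block, an alternative chosen after seeing the data, gave 12 and 15. Over all genes, DESeq2 called 33 higher and 15 lower in KO at D0, 218 and 90 at D19, 28 and 9 at D80 and 166 and 51 in tumors, where edgeR called 0 and 0, 0 and 0, 0 and 0, and 50 and 8. Leaving out the libraries that stood apart did not apply to KO against WT at D0, WT at D19 against D0 or KO at D80 against D0. Depth limits Tnfsf4 and Tnfsf18, which had 3 or fewer reads over each D0 group.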

Other observations

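The ratio of osteoprotegerin, Tnfrsf11b, to its ligand RANKL, Tnfsf11, was taken per kilobase in each library. At D19 it was 1.85 ± 0.47 in KO colons and 7.31 ± 4.69 in WT colons (SD, n = 4 each). The ranges overlapped, 1.25 to 2.39 in KO and 2.18 to 13.5 in WT. WT mice 685 and 686, whose label prefix 97 no KO mouse carried, had 16 and 15 Tnfsf11 reads. At D80 the ratio was 14.5 ± 8.03 in KO colons and 10.4 ± 8.75 in WT colons (n = 4 each), with overlap, and in KO tumors 136 ± 73.5 (n = 3). These are values with no test, and none is given for WT tumors, where 1 library had 3 or fewer Tnfsf11 reads.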
